A study of Pseudopodoces humilis with 2 samples.

Results

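Among 15394 genes of the ground tit (Pseudopodoces humilis) listed for liver and muscle, 113 stood at 0 in liver and at 1 RPKM or more in muscle. RPKM counts reads per kilobase of a gene after scaling for how many reads a library has. The members were chosen by these 2 values alone, so the absence from liver and the presence in muscle are the choice itself and not a result. The 113 made up 0.734% of all genes and 1.66% of the 6816 genes at 1 RPKM or more in muscle. In the other direction 4 genes were at 0 in muscle and at 1 RPKM or more in liver, which is 0.026% of all genes and 0.0837% of those at 1 RPKM or more in liver. Muscle was sequenced more deeply than liver, so 0 was harder to reach in muscle and the 2 counts are not a like contrast.

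The ground tit is a songbird of the Tibetan plateau, and total RNA of its liver and muscle was sequenced as a resource for annotating genes. The series holds 1 sample of each tissue, with no treatment named, and neither the age, the sex nor the number of birds is given. No replicate exists, so no difference between tissues was tested. The muscle column can be split into 2 averaged libraries, of 86472618 and 47542891 reads, called the larger and the smaller library, and liver had 46313678 reads. Muscle assemblies 2 and 3 and 1 liver assembly hold transcripts put together from the reads, and nothing ties an assembly to a library.

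Liver and skeletal muscle differ widely in the genes they use. Liver cells secrete most plasma proteins, while muscle fibres fill with contractile and energy-buffering proteins that liver lacks. A muscle sample also contains nerve endings, vessels, connective tissue and whatever adhered at dissection. No gene names come with the IDs, so the fibre, nerve, skin, blood, fat, immune and liver markers could not be looked up and the tissue labels could not be checked against them. In bulk RNA, fewer cells of a type and less RNA per cell cannot be told apart.

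The members ranged widely in muscle level. Their median was 4.12 RPKM, with quartiles of 1.52 and 11.7, beside 3.27 RPKM (1.78 and 7.74) for the other 6703 genes at 1 RPKM or more in muscle. There were 38 members under 2 RPKM and 33 at 10 RPKM or more. Together they took 0.878% of the summed muscle RPKM, and the 3 highest members held 27.9% of the members' sum. On the log2(RPKM + 1) scale 65 members were at least 4-fold above liver, beside 4.49% of all genes, and 24 were at least 16-fold above it, beside 0.961% of all genes. The rule itself fixes these counts.

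The highest member was evm.TU.scaffold194587.1, the only gene listed on scaffold 194587. Liver gave 0 RPKM, the larger muscle library 137 RPKM from 3637 reads and the smaller 205 RPKM from 2996 reads. The next was evm.TU.scaffold1874.1, also the only gene on its scaffold. It had 97.0 RPKM in the larger and 117.5 RPKM in the smaller library, from 4461 and 2973 reads. Both were thus somewhat higher in the smaller library.

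Gene 6 on scaffold 17417 followed with 62.3 RPKM in the larger and 96.5 RPKM in the smaller library. The gene on scaffold 21151 had 55.0 RPKM and 63.7 RPKM. Gene 5 on scaffold 14806 had 47.3 RPKM and 52.8 RPKM, and gene 4 beside it, also a member, had 5.71 RPKM and 6.70 RPKM. In all of these the libraries lay within 2-fold of each other.

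The others among the 10 highest lay between 26.3 and 39.9 RPKM. The genes on scaffolds 190998 and 172780, each alone on its scaffold, had 30.3 RPKM and 26.6 RPKM in the larger library and 41.5 RPKM and 29.4 RPKM in the smaller. Gene 25 on scaffold 12228 had 24.4 RPKM and 28.3 RPKM. Gene 13 on scaffold 12473 was the exception among the 10 and is described with the library balance.

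Gene 5 on scaffold 22792 was the member with the most reads. Its 35.8 RPKM in the larger and 44.0 RPKM in the smaller library rested on 17103 and 11537 reads, over a recovered length of 5519 bases. At the same RPKM in liver it would have had 10199 reads, and it had 0. Gene 101 on scaffold 22645 was close behind, with 12488 and 7197 muscle reads over 5778 bases and a muscle level of 25.6 RPKM.

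**Figure D1:**
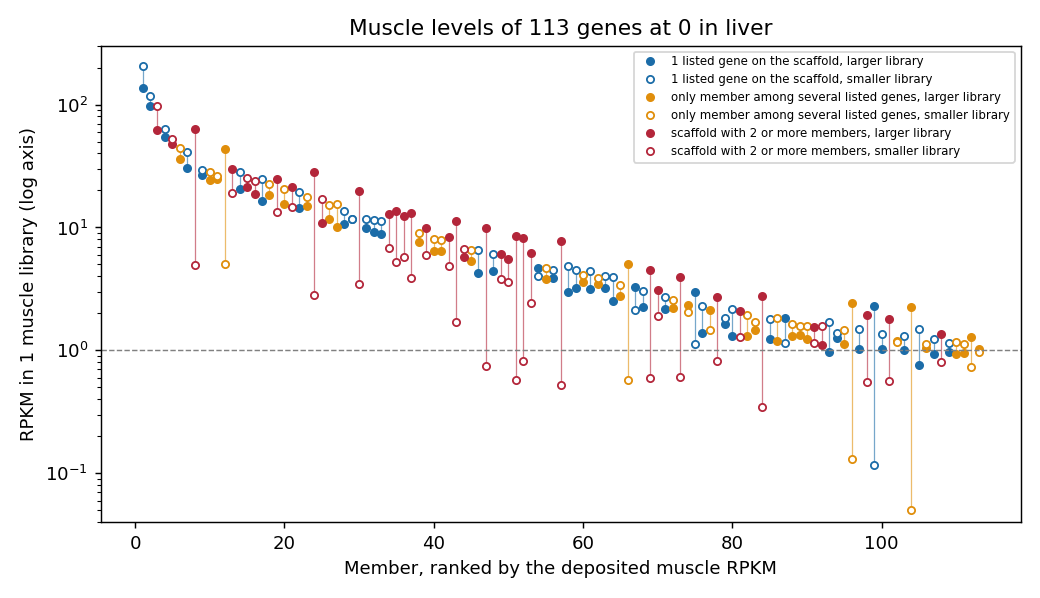
RPKM of the 113 members in the larger (filled) and smaller (open) muscle library on a log axis, ranked by the deposited muscle RPKM, with 1 line per member joining its 2 values and the dashed line at 1 RPKM; colours give the kind of scaffold, and the member at 0 in the smaller library is drawn at the base. The 3 highest members have 171, 107 and 79.4 RPKM, and long lines pointing down mark members that are far lower in the smaller library.

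A count of 0 in liver allowed up to 3 reads, or 0.0648 RPM (reads scaled to library size alone), and this covers counting error only. Set against that floor, the muscle RPKM of the members was at least 41.8-fold higher in the median, with quartiles of 15.9 and 135. The bound was at least 3400-fold for gene 5 on scaffold 22792 and at least 1200-fold for the gene on scaffold 21151. It reached 100 for 35 members and 16 for 83. The bounds are built from the values that chose the members, so they are a description, and shares over all genes were not computed. Muscle RPKM over the RPKM of 3 liver reads was 371 in the median for the 6703 other genes at 1 RPKM or more in muscle. For 4 members it stayed under 4, so that with the reads as recovered a lower liver level was hardly measurable.

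The lowest bound was that of gene 2 on scaffold 12473, at least 1.40-fold, with 12 and 2 recovered muscle reads over a recovered length of 51 bases. If a divisor common to its length and reads was lost in the recovery, the bound would be higher. At the edge of the rule, the lowest members were gene 21 on scaffold 315 and gene 31 on scaffold 21830, both at 1.00 RPKM, gene 8 on scaffold 20266, gene 10 on scaffold 30 and the gene on scaffold 176538 at 1.06 RPKM. Just outside lay gene 43 on scaffold 18864 at 0.975 RPKM and gene 4 on scaffold 2719 at 0.971 RPKM, both at 0 in liver. On the liver side, 84 genes with 1 RPKM or more in muscle had 1 liver read and 41 had 2. Gene 29 on scaffold 1735 had 1 liver read beside 29039 and 20513 muscle reads.

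Members had short recovered lengths. Their median recovered length was 451 bases (quartiles 292 and 1427), against 6109 bases (2056 and 15272) for the other genes at 1 RPKM or more in muscle. Those other genes reached 255158 bases. Whether introns count was not stated, so recovered length is not read as transcript length. On scaffolds 21151 and 22129 it was 1310 and 1861 bases, beside longest spliced muscle transcripts of 536 and 561 bases. On scaffold 194587 it was 307 bases, beside 417. Of the members, 61 (54.0%, Wilson 95% interval 44.8 to 62.9) were under 500 bases, against 597 (8.91%, 8.25 to 9.61) of the other genes. Of the 1346 genes at 0 in liver and under 1 RPKM in muscle, 405 (30.1%, 27.7 to 32.6) were that short. Recovered lengths are lower bounds, since any divisor common to a gene's length and its reads drops out. On data simulated from the recovered lengths and reads, this happened to 19.5% of genes like the members but to 7.50% of other genes at 1 RPKM or more in muscle. Divisors already lost are absent from that simulation, so the rates in the real data can differ. Lengths may thus be understated more often for members, and the effect on the medians was not tested. A gene of low read number at a given RPKM also reaches 0 liver reads more easily, so the rule and the length are linked.

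Over all genes at 1 RPKM or more in muscle, the share at 0 in liver was highest in the shorter length classes. It was 7.78% (20 of 257) under 250 bases, 10.2% (41 of 401) from 250 to under 500, 3.33% (14 of 420) from 500 to under 1000 and 2.30% (15 of 652) from 1000 to under 2000. From 2000 to under 5000 bases it was 0.945% (13 of 1376), and at 5000 bases or more it was 0.270% (10 of 3710). Along muscle level there was no such order: the share was 1.82% from 1 to 2 RPKM, 1.2% from 2 to 5, 1.37% from 5 to 10, 2.65% from 10 to 50 and 1.54% at 50 or more.

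The longest members were the gene on scaffold 4197, with 27467 bases and 3.78 RPKM, and gene 3 on scaffold 21532, with 26364 bases and 1.48 RPKM. The former had 7472 and 5760 muscle reads and the latter 3007 and 2062. Both had 0 liver reads.

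**Figure D2:**
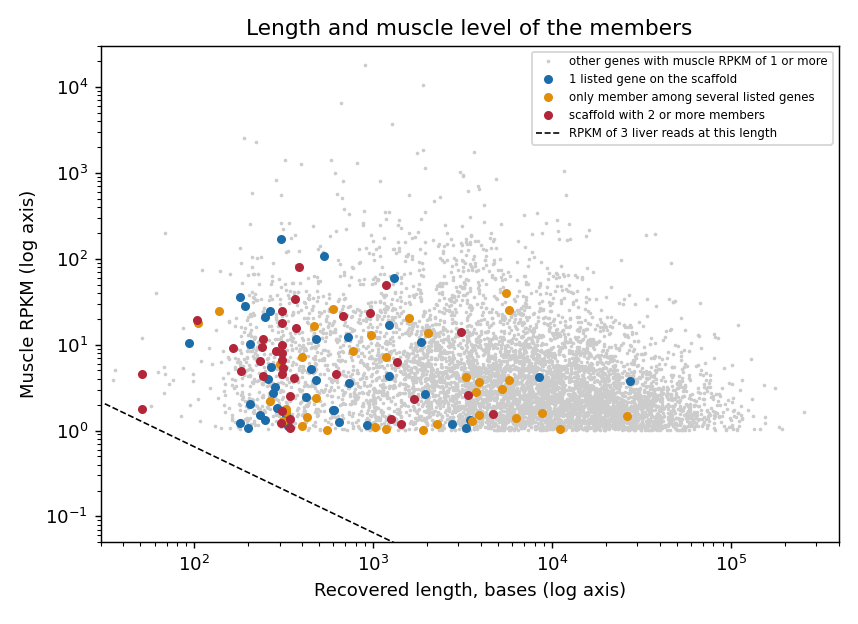
Recovered length (x, bases) and muscle RPKM (y) on log axes for the members, coloured by kind of scaffold, and the 6703 other genes at 1 RPKM or more in muscle (grey); the dashed line is the RPKM of 3 liver reads at each length. Members crowd at the left, with a median of 451 bases, and lie above the dashed line.

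The muscle libraries divided the members. Over all genes at 1 RPKM or more in muscle the median ratio of larger to smaller library was close to even, at 1.03 for the 6703 other genes, and 3.87% of the 6816 genes exceeded it 2-fold or more in the larger library. Of the members, 24 (21.2%, 14.7 to 29.7) were at least 2-fold higher in the larger library and 0 were 2-fold higher in the smaller, beside 0.191% of the 6816 genes. At 4-fold, 16 members (14.2%, 8.91 to 21.8) were higher in the larger library, beside 1.12% of the 6816 genes, and 0 in the smaller, beside 0.0147%. At 10-fold, 7 members were among the 9 such genes in all, which are 0.132% of the 6816, and 0 were higher in the smaller, beside 0.0147%. Of these 7, all but gene 13 on scaffold 12473 were under 1 RPKM in the smaller library and passed through the larger alone. Most of the members at 2-fold and at 4-fold did so too. The gene on scaffold 172182, at 10-fold, had only 36 reads and 1 read. A count of 0 in either library was set to 3 reads. Of the 1346 genes at 0 in liver and under 1 RPKM in muscle, 216 scored at least 2-fold higher in the larger library and 454 in the smaller. No direction is read from these scores, since the medians were only 2 and 1 reads. Gene 27 on scaffold 17417, with 1 read in the larger library and 0 in the smaller, scored a ratio of 0.183 through that setting. The ratio was not used to choose the members, but both come from the same muscle reads, and the minimum applies to the mean of the libraries. A member could therefore pass through 1 library: 17 reached 1 RPKM in the larger library alone and 6 in the smaller alone. The counts by ratio are thus a description.

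Most members leaned the other way, to a small degree. The median ratio over the 113 was 0.861, and 44 members (38.9%, 30.5 to 48.2) were higher in the larger library, against 3898 (58.2%, 57.0 to 59.3) of the other genes. With an exact binomial 95% interval for counting error, 47 members were below an even ratio, 33 were above it and 33 could not be placed. At 1 RPKM or more, 90 members passed in both libraries, 17 in the larger alone and 6 in the smaller alone.

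Among members with 10 RPKM or more, gene 13 on scaffold 12473 had the highest ratio. It had 63.3 RPKM in the larger library and 4.94 RPKM in the smaller, from 2003 and 86 reads, a ratio of 12.8 (10.3 to 16.1). Gene 5 on scaffold 11689 had 28.4 RPKM and 2.85 RPKM, from 907 and 50 reads, a ratio of 9.97 (7.50 to 13.5). Gene 80 on scaffold 3513 had 43.7 RPKM and 5.07 RPKM, a ratio of 8.63 (6.07 to 12.7).

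Some longer members were also far higher in the larger library. Those given here were under 1 RPKM in the smaller library and passed the minimum through the larger alone. Their ratios are thus a description. Gene 24 on scaffold 22115 had 751 and 22 reads over 3557 bases, a ratio of 18.8 (12.3 to 30.1). Genes 66 and 67 on scaffold 18915 had 1116 and 77 reads and 1319 and 95 reads, with ratios of 7.97 and 7.63. Gene 11 on scaffold 2983 had 1658 and 103 reads, a ratio of 8.85. The first gene on scaffold 5004, a short member of 402 bases, had 79 reads in the larger library and 0 in the smaller.

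**Figure D3:**
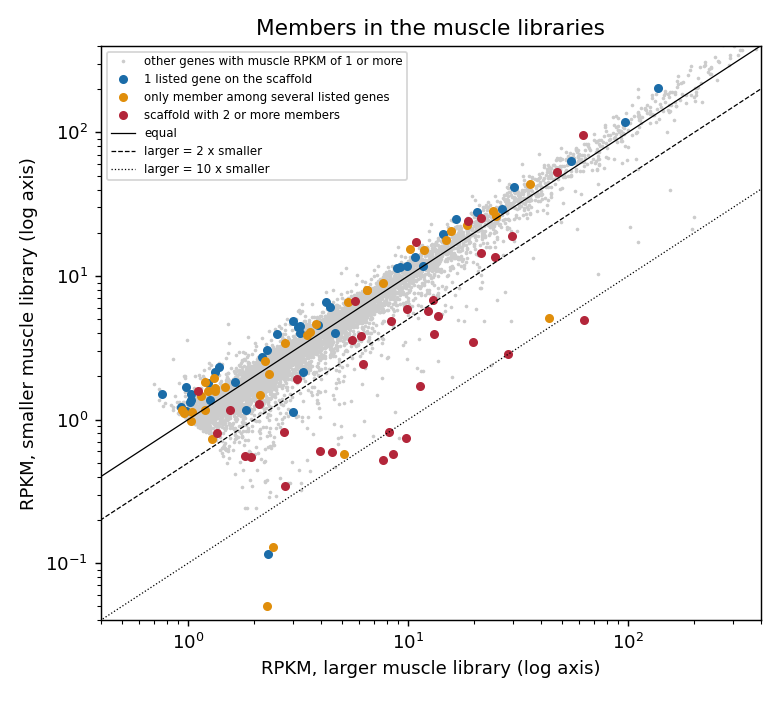
RPKM in the larger (x) and smaller (y) muscle library on log axes for the members, coloured by kind of scaffold, and the other genes at 1 RPKM or more in muscle (grey), with lines for an even ratio and for 2-fold and 10-fold higher in the larger library; the member at 0 in the smaller library is drawn at the base. Of the 24 members at or past the 2-fold line, 18 lie on scaffolds with 2 or more members. Members under 1 RPKM in the smaller library passed the minimum through the larger alone.

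Members were spread over 87 scaffolds, and 3 kinds of place could be told apart. There were 40 members (35.4%, 27.2 to 44.6) on scaffolds with 1 listed gene, against 729 (10.9%, 10.2 to 11.6) of the other genes at 1 RPKM or more in muscle. Of the 1346 genes at 0 in liver and under 1 RPKM in muscle, 276 (20.5%, 18.4 to 22.7) were on such scaffolds, between those shares. A further 36 were the only member among several listed genes, and 37 shared 11 scaffolds with other members. A neighbouring gene number on the same scaffold belonged to another member for 19 members (16.8%), while a member was next to 30 of the 6703 other genes (0.448%) and 25 of the 1346 (1.86%). The gene number is the one in the ID, and the files used here give no gene positions to check it against.

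Library balance differed between these places, which is given as a description. The minimum applies to the mean of the libraries, so members under 1 RPKM in the smaller library passed only through the larger. Shares over all genes by kind of scaffold were not computed. Members on scaffolds with 2 or more members had a median ratio of 1.90, and 18 of 37 were at least 2-fold higher in the larger library. Members on scaffolds with 1 listed gene had a median ratio of 0.760, with 2 of 40 at 2-fold, and the 36 others had a median of 0.847, with 4 at 2-fold. The members on shared scaffolds were also shorter, with a median recovered length of 312 bases against 437 and 1180.

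Scaffold 17417 held the most members, 9 of its 26 listed genes. Gene 6 stood apart at 0.646 times in the larger library what it was in the smaller. The 8 others, genes 18, 20, 23, 28, 30, 31, 32 and 33, lay between 4.12 and 11.6 RPKM and were all higher in the larger library. Gene 28 had 242 and 9 reads, and gene 20 had 265 and 11, ratios of 14.8 and 13.2. Gene 30 was the most even, with 97 and 33 reads and a ratio of 1.62. The recovered lengths of the 9 ran from 183 to 385 bases.

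The rest of scaffold 17417 was silent in liver only in part. Genes 8, 15, 16, 26 and 27, which are no members, also had 0 liver reads, and genes 24 and 25 had 1 each. Genes 1 to 5 had 33 to 595 liver reads each. Gene 12, which is no member, had 672 liver reads, with 55022 and 3753 reads in the larger and smaller library. Its ratio of 8.06 leaned to the larger library, as in genes 18 to 33 that are members and unlike gene 6. Liver transcripts were assembled from position 166 to 52717, and 14 were found. Muscle transcripts went on to position 152385 in assembly 2 and 152380 in assembly 3. Beyond the last liver transcript lay 23 transcripts of muscle assembly 2, of which 14 had 2 exons, and 11 of assembly 3, of which 9 had 2 exons.

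Scaffold 22385 was nearly all members. Genes 2 to 6 of its 6 genes were at 0 in liver, and gene 1 had 1 liver read. Gene 1 had 679 and 267 reads in the larger and smaller library, gene 2 had 574 and 214, gene 3 had 265 and 87, gene 4 had 224 and 71, gene 5 had 345 and 100 and gene 6 had 176 and 45. The 5 members lay between 6.61 and 18.0 RPKM, with ratios between 1.47 and 2.15. Genes 1 to 5 all had a recovered length of exactly 309 bases.

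Both muscle assemblies held transcripts on scaffold 22385. Assembly 3 held 6 transcripts between positions 2426 and 34126, all of 2 exons, with a median spliced length of 642 bases. Assembly 2 held 5, of which 3 had 2 exons, and 3 introns were identical in both. The liver assembly held 0 there.

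A length of 309 bases recurred elsewhere. Among all 15394 genes 21 had it, 7 of them members, and 8 of the 21 lay on scaffolds 22385, 5273 and 17271. On scaffold 5273, genes 1 and 3 had 309 bases and gene 6 had 306, and gene 2 had 103, of which 309 is a multiple. Gene 1 on scaffold 17271 had it too. These scaffolds were singled out after their values were seen. Reads aligned at more than 1 place are kept in a row of their own in the table, so the levels of genes with near-identical copies are uncertain.

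On scaffold 5273, genes 1, 2, 3, 4 and 6 of 39 listed genes were members. Gene 3 had 29.6 RPKM in the larger and 19.1 RPKM in the smaller library, and gene 2 had 24.8 RPKM and 13.5 RPKM. Genes 1, 4 and 6 lay between 1.08 and 1.69 RPKM. Genes 5 and 7 to 11 were also at 0 in liver but below the muscle minimum, at 0.0585 to 0.242 RPKM. Liver reads began with gene 12. In the assemblies, the first liver transcript started at position 101285. Before it lay 12 transcripts of muscle assembly 2, from 11419 on, and 6 of assembly 3. No gene positions tie that place to a gene number, and the assemblies use reads of the same samples.

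Scaffold 12473 had 0 liver reads over all of its 11 listed genes. Its 3 members, genes 2, 6 and 13, had 2.72, 8.16 and 63.3 RPKM in the larger library and 0.825, 0.825 and 4.94 RPKM in the smaller. The 8 other genes were all below 1 RPKM in the muscle column, with 4 to 39 reads in the larger library and 0 to 2 in the smaller. No liver transcript was assembled there, against 7 transcripts in muscle assembly 2, 5 of them of 2 exons, and 3 in assembly 3.

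**Figure D4:**
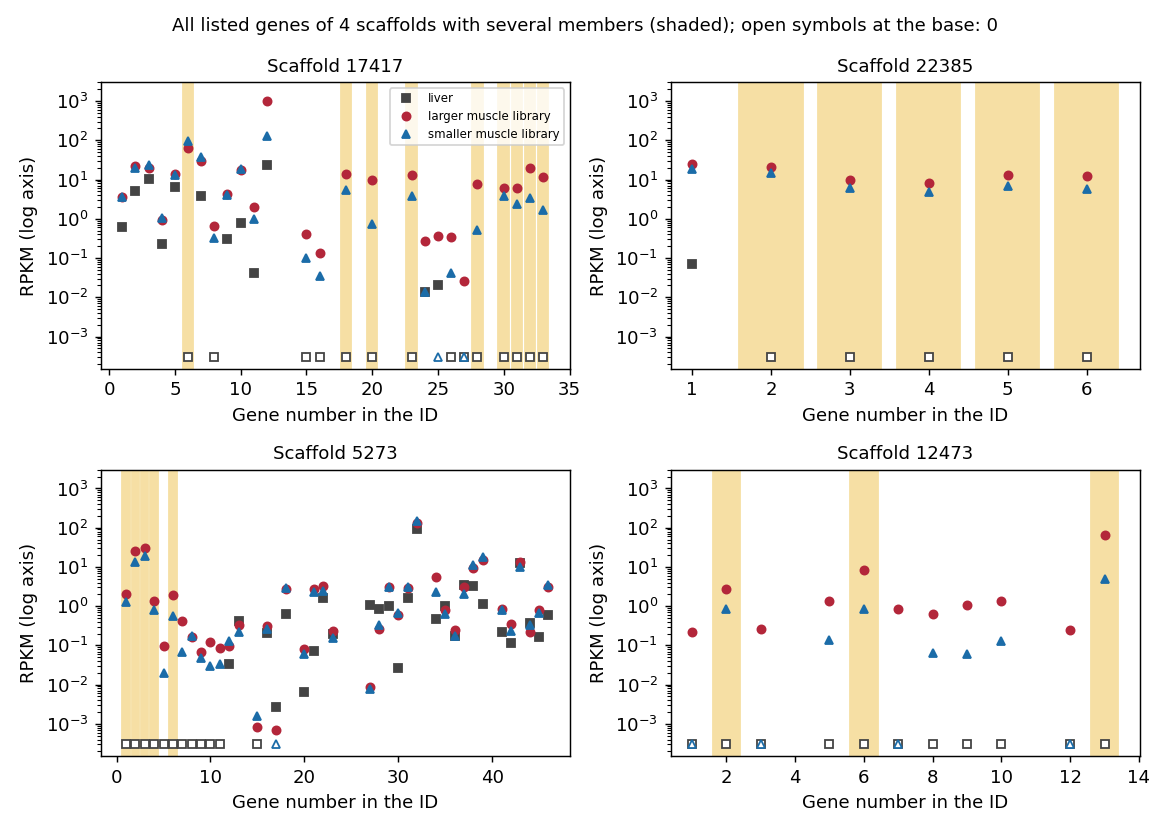
RPKM in liver (grey squares), the larger (red circles) and the smaller (blue triangles) muscle library on a log axis, by gene number, for every listed gene of scaffolds 17417, 22385, 5273 and 12473; members are shaded and open symbols at the base mark 0. On 22385 and 5273 members have neighbouring numbers, and on 12473 all 11 genes are at 0 in liver.

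The other shared scaffolds differed in balance. On scaffold 11689 genes 5 and 13 had ratios of 9.97 and 14.8, and 18 transcripts of muscle assembly 2 and 7 of assembly 3 lay before its first liver transcript, at position 115735. Gene 6, between them, had 2 liver reads and a ratio of 0.829, so neighbouring numbers differed. On scaffold 16194, by contrast, genes 46 and 66 had 21.3 and 23.4 RPKM and ratios of 0.776 and 0.841. That scaffold held 111 liver transcripts, and no gene positions place these genes among them. Scaffold 14806 was alike, with 2 adjacent members at ratios of 0.852 and 0.896. Scaffolds 17271 and 22713 held 2 members each, with ratios of 1.33 to 3.24. On scaffold 18915 genes 66 and 67 leaned to the larger library, while gene 105 had 10.8 RPKM in it and 17.2 RPKM in the smaller. On scaffold 10201 gene 29 had 588 and 49 reads and gene 39 had 121 and 95.

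On scaffolds with 1 listed gene a member could be set beside the transcripts assembled there. Of the 40, 39 had a transcript in muscle assembly 2 (97.5%, Wilson 95% interval 87.1 to 99.6), 38 in assembly 3 (95%, 83.5 to 98.6) and 1 in liver (2.5%, 0.443 to 12.9). For 37 (92.5%, 80.1 to 97.4) there was a transcript in both muscle assemblies and none in liver. The assemblies use reads of the same samples as the table, so they are no replicate check. Choosing genes with 0 liver reads and 1 RPKM or more in muscle largely fixes these shares, and they are given as a description.

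The counts for other genes are given for reference, and nothing is read from the liver contrast, since all of the 729 have liver reads. Of these 729 other genes at 1 RPKM or more in muscle on such scaffolds, 592 (81.2%, 78.2 to 83.9) had a liver transcript, and 725 and 711 had one in the muscle assemblies. Of 276 genes at 0 in liver and under 1 RPKM in muscle, 12 (4.35%) had a liver transcript and 63 (22.8%) and 35 (12.7%) had one in the muscle assemblies.

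**Figure D5:**
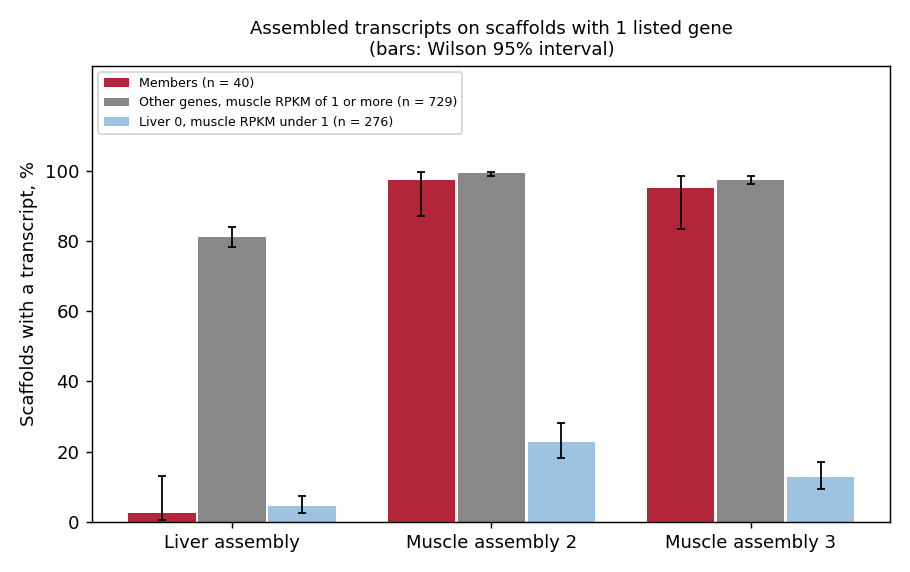
Share of scaffolds with 1 listed gene that held an assembled transcript, in percent, for members, other genes at 1 RPKM or more in muscle, and genes at 0 in liver and under 1 RPKM in muscle, with Wilson 95% intervals. Members have 97.5% and 95% in the muscle assemblies and 2.5% in liver, shares that the choice by liver and muscle RPKM largely fixes.

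The exception with liver transcripts was scaffold 4197, which holds the longest member. Its liver assembly had 4 transcripts, between positions 8466 and 24206. Muscle assembly 2 had 2 transcripts over that stretch, up to position 24209, 1 before it, and 3 more from 32880 to 69401 with up to 12 exons, where liver had 0. Which stretch the listed gene covers is not given in the files used here. The gene itself had 0 liver reads, so the liver transcripts need not be its own. Its recovered length was 27467 bases. The longest muscle spans were 23838 bases up to position 24224 and 36522 bases from 32880. On scaffold 176538, with 17 and 11 reads, no assembly held a transcript, and on scaffold 172182, with 36 reads and 1 read, assembly 2 alone held one.

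Spliced transcripts were found for 20 of the 40 (50%, 35.2 to 64.8), against 451 of the 729 other genes (61.9%, 58.3 to 65.3). Transcripts of 3 or more exons were found for 8 (20%, 10.5 to 34.8), against 269 (36.9%, 33.5 to 40.5). A further 19 had single-exon transcripts only. Under 1000 bases of recovered length, 12 of 30 members (40%) and 223 of 487 other genes (45.8%) were spliced.

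Most introns were found in both muscle assemblies. Of 57 introns of assembly 2 on these scaffolds, 48 (84.2%) were identical in assembly 3, which held 55. Scaffold 4197 alone held 23 of the 57 and 20 of the 48. The share was not computed for the other genes on scaffolds with 1 listed gene, so nothing particular to the members is read from it. The highest member, on scaffold 194587, had transcripts on the plus strand of up to 5 exons from position 97 to 2315 in assembly 2 and of up to 4 exons from 649 to 2312 in assembly 3, with 3 shared introns. The gene on scaffold 21151 had transcripts of 3 exons from 233 to 1492 on the minus strand, and all 3 introns were shared. The gene on scaffold 22564 had 7 exons from 286 to 3949 on the minus strand in assembly 2. On scaffold 22214 both assemblies held the same 3 transcripts, of which those from 7582 to 8579 and from 8273 to 8579 had 2 exons. On scaffold 22734 assembly 2 held 5 transcripts and assembly 3 held 1, and a transcript of 2 exons with the same intron was in both.

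On most of these scaffolds the assembled muscle transcripts ended at a low position. The last assembled muscle base lay under position 1000 on 20 of 39 and under 5000 on 35, with a median of 935, and the longest reach was 69401 on scaffold 4197. The median longest spliced transcript was 334 bases and the median longest span 513 bases, beside a median recovered length of 437. The recovered length was within 20% of the longest span for 21. Scaffold lengths are not given in the files used here, so how much of each scaffold was transcribed was not measured.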

How the data were processed

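Libraries of total RNA from 1 liver and 1 muscle sample were made with a TruSeq RNA kit and run on a HiSeq instrument, per the labels and design text. TopHat is named in the submitters' processing notes, without a version. The authors deposited RPKM per gene and tissue, per the file headers. For genome build, annotation, counter and length definition, details were not given in the sources used here. Assemblies come from Cufflinks, per the deposited files, with 1-based positions, and the deposited transcript score was not used.

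Totals, lengths and whole reads were recovered from RPKM values of 15 digits, with the lowest length and read numbers matching both tissues to within a relative 6e-15. This worked for 15384 of 15394 genes and all 6816 with muscle RPKM of 1 or more. That the muscle column averages 2 libraries comes from the values, not the labels. On data simulated from the recovered lengths and reads, of 113 genes like the members 80.5% came back exactly, 19.5% up to a common divisor and 0 wrongly. Of 200 other genes set to 0 in liver, 3 came back wrongly. RPKM per library does not depend on the divisor. Read numbers, fold bounds and ratio intervals do: where a divisor was lost, the reads and bounds are too low and the intervals too wide.

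Members and lists were chosen with earlier results of these data known. The naming rule was to print the IDs of the 2 highest members and to locate by scaffold the next 8, the 5 with the most transcripts or exons on scaffolds with 1 listed gene, exceptions there, shared scaffolds and members next to the minimum. Others named were chosen after their values were seen. The 9 marker lists were not evaluated, since no ID has a name. Shares have Wilson and library ratios exact binomial 95% intervals. The Wilson intervals treat genes as independent, though 37 members share 11 scaffolds, so they can be too narrow. The binomial intervals, like the floor of 3 reads, hold counting error alone, and reads lacking molecular identifiers can be copies of 1 molecule. Alternatives were other minimums, liver limits, scales, single libraries and transcript filters. Python 3.11.15, numpy 2.4.6, pandas 2.3.3, scipy 1.17.1 and matplotlib 3.10.9 were used.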

Additional observations from a re-analysis of the deposited data

Results flagged for a closer look

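Reads outside the gene rows entered no comparison. They are given as shares of whole libraries and are not set against the floor of 3 reads for a gene. In liver 24.3% of reads fell in no feature, 2.80% aligned at more than 1 place and 0.0635% were ambiguous. In muscle the shares were 30.6%, 4.13% and 0.217%. How many of these reads came from the members was not tested.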

How the results depend on the processing

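No paired analysis was possible because each tissue has 1 sample. The number of members, 113, became 171 with a muscle minimum of 0.5 RPKM, 75 with 2 RPKM, 48 with 5 RPKM and 293 with up to 3 liver reads. On the TPM scale it became 336, where a minimum of 1 TPM is a lower bar than 1 RPKM in these data. With 1 RPM in place of 1 RPKM there were 117, of which 86 were members. With the larger and the smaller library alone there were 125 and 102, of which 107 and 96 were members. The median muscle level, 4.12 RPKM, became 1.50, 8.32 and 14.8 RPKM with minimums of 0.5, 2 and 5. The share on scaffolds with 1 listed gene stayed between 31.2% and 39.2%. Counting only transcripts of 2 or more exons left 47.5% of members with one in muscle assembly 2 and 47.5% in assembly 3, and without scaffolds of more than 1 merged locus the liver share became 0%. The median bound on the fold over liver, 41.8, became 125 with a floor of 1 read.

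Chosen after the data were seen were alternatives for library balance and shared scaffolds. The 24 members 2-fold higher in the larger library became 14 with 20 or more reads in the smaller library and 17 without the scaffold that holds the most. The 37 members on shared scaffolds became 57 of 171 at 0.5 RPKM, 87 of 293 with up to 3 liver reads and 21 of 102 with the smaller library alone. The causes of these shifts were not tested beyond the altered number of genes. Depth limits members with few reads most: 16 had fewer than 20 recovered reads in the smaller library, a number that a lost divisor can lower.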
